A study of Mus musculus with 22 samples.

Results

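The apoptosis genes followed here are 8 that are linked to the transcription factor E2F1, measured across the 11 groups of an RNA sequencing time course: Bbc3, Bcl2l11, Pmaip1, Apaf1, Casp2, Casp8, Bcl2 and Mcl1. They were chosen by name, as rows of the deposited table of normalized counts whose symbol equals one of the 8 names. Of the 8, 7 were among its 11208 genes, and Pmaip1 was not analysed here. All 7 were measured in all 22 libraries and passed the filter on low values, as did every gene of the table.

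Mitochondrial apoptosis is governed by the BCL2 protein family. Pro-survival members such as BCL2 and MCL1 hold back the pore-forming proteins of the outer mitochondrial membrane, and BH3-only proteins such as PUMA (encoded by Bbc3) and BIM (encoded by Bcl2l11) neutralise the pro-survival members. Once cytochrome c leaves the mitochondria, APAF1 assembles the apoptosome that activates caspase-9, while caspase-8 starts the cascade from death receptors and caspase-2 from the PIDDosome. E2F1 drives entry into S phase and is also known to activate pro-apoptotic genes.

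The cells were NIH/3T3, an established mouse embryonic fibroblast line. The E2F1 line carried a stably integrated construct for doxycycline-inducible expression of E2F1, and the EV line an empty-vector construct. Every group was first starved for 48 h in 0.25% serum. The E2F1 and EV lines were then given 500 ng/ml doxycycline, and further EV cells were given 10% serum in its place. RNA was taken at 0, 2, 6 and 12 h, with 2 libraries in each group. The EV 0 h libraries are the starting point of both the EV doxycycline and the serum comparisons, so those comparisons share control samples. Whether a line was 1 clone or a pool of clones, and whether the 2 libraries of a group came from separate cultures, is not given in the sources used here; p-values measure the spread between these libraries, which may be technical. In bulk RNA, fewer cells that express a gene and less RNA per cell cannot be told apart.

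Library totals ranged from 34014608 to 46057140 normalized counts. All 12 fibroblast markers were among the genes measured, and none of 5 epithelial or 5 endothelial markers was; of 5 leukocyte markers only Csf1r was, at 365 to 735 in the 6 serum libraries and 33 to 229 in the 16 others. The part of Csf1r, which moved with serum, in the serum results was not tested. The Y-linked gene Ddx3y marked the lines: it was at 580 and 521 in the E2F1 0 h libraries against 9 and 4 in the EV 0 h libraries. It stood at 103 and 71 in the EV libraries at 2 h of doxycycline and at 132 and 170 at 2 h of serum, and at 329 and 316 in the E2F1 libraries at 2 h, so the 2 h libraries of the lines lay closer to each other than the 0 h libraries did. The part of this in the 2 h results was not tested, and counts at 6 and 12 h were also made without the 2 h doxycycline libraries.

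In the E2F1 line E2f1 itself stood at 1703 and 1637 at 0 h, 1535 and 1755 at 2 h, 3806 and 3602 at 6 h and 2683 and 2845 at 12 h. In the EV line under doxycycline every library lay between 1307 and 1655. The E2f1 change in the E2F1 line exceeded that in the EV line by 1.31 log2 units at 6 h (SE 0.155, limma adjusted p = 3.38e-06). The excess was 0.88 at 12 h (adjusted p = 0.000141), and 0.25 at 2 h did not pass the test (adjusted p = 0.786). Under serum, E2f1 was at 802 and 740 at 2 h, 1186 and 956 at 6 h and 4615 and 4247 at 12 h. Whether transcripts of the construct are counted in this row is not given in the sources used here.

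The RefSeq promoter windows of the 7 genes (GRCm38.p6, 250 bases before to 50 after a transcript start, 10 windows in all) were searched on both strands for the E2F consensus in its versions TTTCCCGC, TTTCGCGC, TTTGCCGC and TTTGGCGC, and for the FOXO core GTAAACA. FOXO factors are active when growth factors are withdrawn, and Bbc3 and Bcl2l11 are known targets of theirs. The E2F letters occurred in 1 of the 10 member windows, that of Casp2, in 2.26% of the 32851 mouse windows of the same length and in 4.21% of the 11012 windows of genes in the deposited table. The FOXO letters occurred in 2 of the 10, in 1 window each of Bbc3 and Bcl2l11, in 3.65% of all windows and in 2.45% of those of genes in the table. These 3 windows are shown over the 250 bases before the start, all on the plus strand, with the matching letters in capitals; a match is a description of the letters and not a binding site. In Bbc3 (the second of its 3 starts, chr7:16310011-16310260) the match begins 167 bases before the start and is the reverse complement of the core, in Bcl2l11 (chr2:128125788-128126037) it begins 227 bases before, and in Casp2 (chr6:42264735-42264984) 97 bases before.
Bbc3: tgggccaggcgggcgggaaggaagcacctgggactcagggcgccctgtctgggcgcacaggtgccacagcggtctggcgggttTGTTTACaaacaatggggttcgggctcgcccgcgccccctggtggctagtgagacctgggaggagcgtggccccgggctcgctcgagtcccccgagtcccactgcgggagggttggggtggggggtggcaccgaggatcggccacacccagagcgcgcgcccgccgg
Bcl2l11: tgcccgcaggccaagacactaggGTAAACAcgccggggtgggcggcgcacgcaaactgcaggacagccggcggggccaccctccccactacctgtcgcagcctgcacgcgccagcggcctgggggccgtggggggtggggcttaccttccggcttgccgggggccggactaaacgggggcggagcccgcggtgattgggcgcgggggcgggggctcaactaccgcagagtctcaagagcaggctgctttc
Casp2: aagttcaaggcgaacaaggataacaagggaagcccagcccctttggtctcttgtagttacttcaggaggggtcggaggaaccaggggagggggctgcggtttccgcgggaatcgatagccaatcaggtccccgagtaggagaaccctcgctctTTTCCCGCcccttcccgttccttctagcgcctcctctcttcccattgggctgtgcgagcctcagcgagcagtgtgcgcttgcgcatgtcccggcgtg
The GC content of the member windows ran from 42.0% in Casp8 to 78.0% in the third window of Bbc3, against a median of 52.7% over all windows. Casp8 thus stood apart from the other 6 genes, whose windows were all at 63.7% or above. The single Casp8 window (chr1:58802252-58802551) lies within the annotated gene, which begins at 58795374.

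In the E2F1 line 4 of the 7 genes rose at 6 h of doxycycline and 5 at 12 h, and none fell by the reported scaling; with quantile normalization Mcl1 was called lower at 12 h (-0.24, adjusted p = 0.0201). The genes that rose were Bcl2l11, Casp8, Bcl2 and, by the reported scaling only (its change was -0.02 with quantile normalization), Mcl1 at 6 h, and Bbc3, Bcl2l11, Apaf1, Casp8 and Bcl2 at 12 h. Among all genes 51.7% passed the test at 6 h (28.8% higher, 22.9% lower) and 61.5% at 12 h (31.8% higher, 29.7% lower). As counts called in either direction, 4 and 5 of 7 are near the 51.7% and 61.5%. By the reported scaling all of these calls were higher, beside 28.8% and 31.8% of all genes called higher. At 2 h none of the 7 passed limma's test, 2 had an unadjusted p under 0.05, and 1.86% of all genes were called. The median log2 change of the 7 was -0.14 at 2 h, 0.51 at 6 h and 0.63 at 12 h, beside 0.01, -0.03 and -0.02 over all genes. Mcl1 lost its 6 h call without the 2 h doxycycline libraries (adjusted p = 0.0542), which left 3 genes called at 6 h, and the count at 12 h stayed at 5.

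The EV line under doxycycline served as the background for induction. There 1 of the 7 genes passed at 2 h, Bcl2l11, which fell (7.35% of all genes called), none at 6 h (0.134%; 0 members with an unadjusted p under 0.05) and none at 12 h (4.17%; 2 members with an unadjusted p under 0.05). The difference between the lines, E2F1 change minus EV doxycycline change, was tested directly. None of the 7 differed at 2 h, where 0.143% of all genes did and 3 members had an unadjusted p under 0.05. At 6 h Bcl2l11, Casp8 and Bcl2 rose by more in the E2F1 line, and at 12 h Apaf1, Casp8 and Bcl2; none differed the other way. The share of all genes called was 34.5% at 6 h (22.2% higher, 12.3% lower) and 50.5% at 12 h (27.3% higher, 23.3% lower). All 6 of these differences kept direction and call under every alternative tried, including the fit without the 2 h doxycycline libraries.

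Serum moved the genes in another way. At 2 h all 7 changed, 5 lower (Bbc3, Bcl2l11, Apaf1, Casp2 and Bcl2) and 2 higher (Casp8 and Mcl1), with 70.9% of all genes called (37.5% higher, 33.5% lower). At 6 h Bbc3, Bcl2l11 and Casp2 were lower and Mcl1 higher (67.5% of all genes called, 36.5% higher and 31% lower). At 12 h Bbc3, Bcl2l11, Apaf1 and Casp2 were lower and Casp8 and Mcl1 higher (65.7% called, 36% higher and 29.7% lower). The median of the 7 was -0.95, -0.39 and -0.31 at the 3 times, against 0.03, 0.03 and 0.05 over all genes. Tested directly against each other, the E2F1 and serum changes differed for 7 of the 7 genes at 2 h (56.7% of all genes), 6 at 6 h (57.9%) and 6 at 12 h (48.8%). In 5 genes at each of these times the E2F1 change was the higher one, and Mcl1 had the lower E2F1 change at all 3.

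The balance of higher and lower calls over all genes depended on the scaling. With quantile normalization the E2F1 line at 6 h had 2657 genes higher and 3820 lower, in place of 3230 and 2569, and at 12 h 3131 higher and 4122 lower, in place of 3569 and 3329 (3280 and 3775 with equal totals). With the same normalization the difference between the lines had 2068 and 2583 at 6 h, in place of 2493 and 1373, and 2659 and 3457 at 12 h, in place of 3059 and 2606. With equal library totals serum had 2611 genes higher and 5907 lower at 2 h, in place of 4200 and 3752, and 2914 and 4772 at 6 h, in place of 4093 and 3470. The E2F1 and serum changes at 2 h then differed upwards for 4970 genes and downwards for 1966, in place of 2977 and 3382. With equal totals the step from 6 to 12 h had 2130 genes higher and 1771 lower in the E2F1 line, in place of 1688 and 2265, and 3184 and 1392 under serum, in place of 2164 and 2308. The lines at 0 h then differed upwards for 1345 genes and downwards for 524, in place of 993 and 691. Quantile normalization moved the median of all genes in the E2F1 line at 6 h from -0.03 to -0.14, and equal totals moved the serum 2 h median from 0.03 to -0.34. Among the 7 genes the counts lower under serum at 2 h stayed at 5 and those higher in the E2F1 line at 6 h went from 4 to 3; at 12 h quantile normalization left 5 higher and added Mcl1 as 1 lower.

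**Figure D1:**
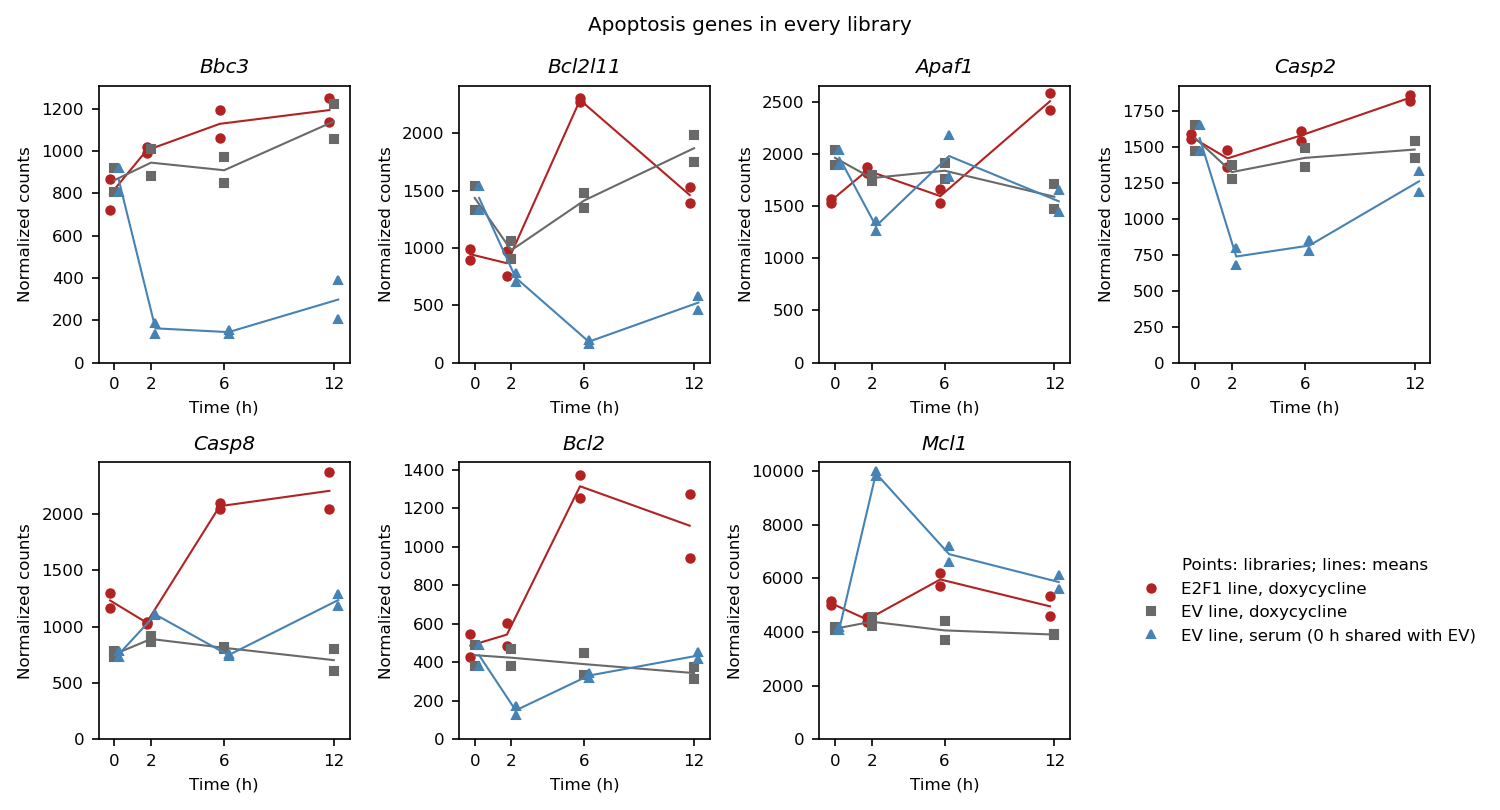
Normalized counts (vertical axis, from 0) of each of the 7 genes against time in hours; points are single libraries, lines join group means, and serum starts from the EV 0 h libraries. Casp8 and Bcl2 in the E2F1 line lie above every other library of those panels at 6 and 12 h, while Bbc3 under serum, and Bcl2l11 with serum at 6 and 12 h, lie below every other library of their panels.

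Bbc3 (ENSMUSG00000002083.13, chr7:16308393-16318205, plus strand, GRCm38 as annotated by GENCODE) encodes PUMA, a BH3-only protein that binds all pro-survival family members. Its normalized counts in the E2F1 line were 722 and 866 at 0 h, 989 and 1018 at 2 h, 1194 and 1064 at 6 h and 1136 and 1252 at 12 h. In the EV line under doxycycline they were 918 and 807, 1011 and 880, 847 and 972, and 1057 and 1224 at the same times. Under serum they were 135 and 189 at 2 h, 154 and 134 at 6 h and 204 and 392 at 12 h. All 6 serum libraries lay below all 16 others, by a wide margin at 2 and 6 h, and the E2F1 and EV libraries at 12 h overlapped. Under serum Bbc3 fell by 2.42 log2 units at 2 h in limma's fit (SE 0.22, adjusted p = 1.48e-08), and the change was -2.58 at 6 h (adjusted p = 1.04e-08), a level 5.96-fold lower, and -1.60 at 12 h (adjusted p = 4.89e-06). The authors' deposited table gives log2 changes of -2.413 at 2 h and -2.572 at 6 h for Bbc3 under serum. From 6 to 12 h of serum the level rose again by 0.97 (adjusted p = 0.00177), a step that was 0.50 without serum 12 h replicate 2 (adjusted p = 0.0598). In the E2F1 line Bbc3 rose by 0.59 at 12 h (adjusted p = 0.0261), but this call was lost without E2F1 0 h replicate 1 (0.46, adjusted p = 0.163), E2F1 12 h replicate 1 (0.66, adjusted p = 0.054) or E2F1 12 h replicate 2 (0.52, adjusted p = 0.12). The EV line showed 0.40 at the same time (adjusted p = 0.375), and the difference between the lines was 0.19 (95% interval -0.46 to 0.84, adjusted p = 0.638). At 6 h that difference was 0.43 (95% interval -0.22 to 1.09, adjusted p = 0.292), so a rise of Bbc3 beyond that of the empty-vector line was not shown at any time, and one of up to about 1.09 log2 units at 6 h is within the interval.

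Bcl2l11 (ENSMUSG00000027381.16, chr2:128126038-128162547, plus strand) encodes BIM, the BH3-only protein best known for death after loss of growth factors. Libraries of the E2F1 line had it at 898 and 992 normalized counts at 0 h, 977 and 756 at 2 h, 2305 and 2275 at 6 h and 1390 and 1532 at 12 h. The EV line under doxycycline had 1543 and 1328, 901 and 1058, 1482 and 1347, and 1987 and 1752. Serum gave 777 and 703 at 2 h, 198 and 166 at 6 h and 585 and 462 at 12 h. The E2F1 6 h libraries were the highest of all 22 and the serum 6 h libraries the lowest, a span of 13.9-fold between the extremes. The E2F1 line rose by 1.28 at 6 h (SE 0.145, adjusted p = 8.11e-07), 2.42-fold, and was 0.63 above its start at 12 h (adjusted p = 0.00107), with a fall between these times (-0.65, adjusted p = 0.00224). The change at 6 h exceeded that of the EV line by 1.30 (95% interval 0.87 to 1.73, adjusted p = 8.17e-05). At 12 h the difference between the lines was 0.25 (95% interval -0.18 to 0.68, adjusted p = 0.334), and the EV level at 12 h was itself 0.38 above its start (adjusted p = 0.168). The lines did not start level: the difference in Bcl2l11 at 0 h, E2F1 minus EV, was -0.60 (adjusted p = 0.01), a call lost without E2F1 0 h replicate 1 (adjusted p = 0.0961) or EV 0 h replicate 1 (adjusted p = 0.0951). The E2F1 6 h libraries nevertheless lay above the highest EV library, 1987. In the EV line at 2 h of doxycycline Bcl2l11 fell by 0.55 (adjusted p = 0.027), to 901 and 1058, near the 898 and 992 of the E2F1 line at 0 h; it was lost in a fit of only the groups compared (adjusted p = 0.0512) and without EV 0 h replicate 1 (-0.44), EV 2 h replicate 1 (-0.44) or EV 2 h replicate 2 (-0.67), with adjusted p of 0.163, 0.183 and 0.0716. The serum change of Bcl2l11 was -0.95 after 2 h (adjusted p = 1.08e-05), -2.97 after 6 h (adjusted p = 1.04e-11, 7.86-fold lower) and -1.46 at 12 h (adjusted p = 9.74e-08), with a return of 1.51 from 6 to 12 h (adjusted p = 2.59e-07). The authors' deposited table lists it at -2.971 for serum at 6 h. At 6 h the E2F1 and serum changes differed by 4.25 (95% interval 3.82 to 4.68, adjusted p = 5.61e-11), the widest gap of the 7 genes at that time.

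Apaf1 (ENSMUSG00000019979.12, chr10:90989311-91082770, minus strand) encodes the scaffold of the apoptosome. Its E2F1-line libraries held 1568 and 1532 normalized counts at 0 h, 1872 and 1814 at 2 h, 1664 and 1530 at 6 h and 2587 and 2427 at 12 h. Those of the EV line under doxycycline held 1893 and 2035, 1739 and 1801, 1765 and 1916, and 1712 and 1470. With serum the values were 1357 and 1262 at 2 h, 1779 and 2184 at 6 h and 1653 and 1442 at 12 h. The E2F1 12 h libraries were the 2 highest of the 22, and the other E2F1 libraries fell within the range of the EV line. Apaf1 rose late: the change was 0.04 at 6 h (adjusted p = 0.759) and 0.69 at 12 h (SE 0.105, adjusted p = 1.72e-05, 1.62-fold), and the step from 6 to 12 h was 0.65 (adjusted p = 0.000173). The difference between the lines was 1.00 at 12 h (95% interval 0.69 to 1.31, adjusted p = 2.21e-05) and 0.14 at 6 h (95% interval -0.18 to 0.45, adjusted p = 0.505). The EV line itself stood at -0.31 from its start at 12 h (adjusted p = 0.121). The E2F1 line began at -0.34 relative to the EV line (adjusted p = 0.0365), a call lost without any 1 of the 0 h libraries (adjusted p from 0.0713 to 0.165), with equal totals (0.0551), with only the groups compared (0.0811) and without the 2 h doxycycline libraries (0.058). Serum lowered Apaf1 at 2 h (-0.58, adjusted p = 7.04e-05; -0.96 with equal totals) and at 12 h (-0.35, adjusted p = 0.00769), and the value at 6 h was 0.01 (adjusted p = 0.963). The 12 h call under serum was lost without EV 0 h replicate 2 (adjusted p = 0.0591) or serum 12 h replicate 2 (adjusted p = 0.101). A small nuclear RNA gene on the opposite strand, Gm25390, overlaps Apaf1, and whether strand was used in counting is not given in the sources used here.

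Casp2 (ENSMUSG00000029863.13, chr6:42264985-42282508, plus strand) encodes caspase-2, the initiator caspase of the PIDDosome. The E2F1 line had 1554 and 1587 normalized counts at 0 h, 1480 and 1360 at 2 h, 1544 and 1613 at 6 h and 1821 and 1864 at 12 h. The EV line under doxycycline had 1468 and 1653, 1277 and 1372, 1489 and 1358, and 1543 and 1420. Under serum Casp2 was at 678 and 797 at 2 h, 852 and 776 at 6 h and 1332 and 1189 at 12 h. The E2F1 12 h libraries were the highest of all and the serum 2 and 6 h libraries the lowest, with the rest between 1189 and 1653. No Casp2 change in the E2F1 line passed the test: the largest was 0.23 at 12 h (95% interval 0.02 to 0.45, adjusted p = 0.0591). The difference from the EV line at 12 h was 0.30 (95% interval -0.00028 to 0.61, adjusted p = 0.0891). Casp2, the gene whose window holds the E2F letters shown above, was thus among the members not called under E2F1 by the reported scaling. Its step from 6 to 12 h there was 0.22 (adjusted p = 0.0979), and 0.28 with equal totals, which passed (adjusted p = 0.0378). Under serum Casp2 fell by 1.08 at 2 h (adjusted p = 2.59e-08, 2.12-fold), and the change was -0.94 after 6 h (adjusted p = 2.42e-07) and -0.31 after 12 h (adjusted p = 0.0135), with a recovery of 0.63 between 6 and 12 h (adjusted p = 8.78e-05). The 12 h call was lost without EV 0 h replicate 2 or serum 12 h replicate 2 (adjusted p = 0.129 in both) and with only the groups compared (adjusted p = 0.0534). A small nucleolar RNA gene on the same strand, Gm25108, lies within Casp2.

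Casp8 (ENSMUSG00000026029.14, chr1:58795374-58847503, plus strand) encodes caspase-8, the initiator caspase of death receptor signalling. For the E2F1 line it stood at 1297 and 1168 normalized counts at 0 h, 1026 and 1045 at 2 h, 2100 and 2042 at 6 h and 2044 and 2371 at 12 h. The EV line under doxycycline stood at 728 and 781, 861 and 919, 805 and 818, and 603 and 801. Serum gave 1115 and 1100 at 2 h, 757 and 736 at 6 h and 1185 and 1287 at 12 h. The 4 E2F1 libraries at 6 and 12 h lay above all others, none of which exceeded 1297, and every E2F1 library lay above every EV doxycycline library. The lines differed before induction by 0.71 (adjusted p = 0.000595), and this call held without each 0 h library in turn. From that start the E2F1 line rose by 0.75 at 6 h (SE 0.116, adjusted p = 3.24e-05) and by 0.84 at 12 h (adjusted p = 6.14e-06), 1.68-fold and 1.79-fold. Beyond the EV line the rise was 0.64 at 6 h (95% interval 0.30 to 0.99, adjusted p = 0.00519) and 0.96 at 12 h (95% interval 0.61 to 1.30, adjusted p = 0.000102). At 2 h the values pointed the other way, -0.25 in the E2F1 line (adjusted p = 0.32) and 0.24 in the EV line (adjusted p = 0.227), and neither passed the test. Under serum Casp8 rose at 2 h (0.55, adjusted p = 0.000328) and again by 12 h (0.71, adjusted p = 3.37e-05), with a 6 h value of -0.01 (adjusted p = 0.92). The 2 h rise under serum was 0.18 with equal library totals (adjusted p = 0.162). The serum 2 h libraries also had Ddx3y, which marked the lines, at 132 and 170, against 9 and 4 in the EV 0 h libraries. The part of this in the 2 h values of Casp8, which differed between the lines, was not tested. At 12 h the E2F1 and serum changes differed by 0.13 (95% interval -0.22 to 0.47, adjusted p = 0.55), the only one of the 7 genes for which this comparison did not pass at 12 h. A transcript model of unsettled status on the same strand, Gm37760, overlaps Casp8.

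Bcl2 (ENSMUSG00000057329.7, chr1:106538178-106714274, minus strand) encodes the founding pro-survival protein of the family. The E2F1 line had 428 and 544 normalized counts at 0 h, 482 and 604 at 2 h, 1375 and 1253 at 6 h and 1276 and 942 at 12 h. The EV line under doxycycline had 381 and 491, 467 and 379, 333 and 446, and 311 and 375. With serum Bcl2 fell to 172 and 126 at 2 h and stood at 344 and 316 at 6 h and 455 and 414 at 12 h. The 4 E2F1 libraries at 6 and 12 h were the highest of the 22, and no other library exceeded 604. The rise in the E2F1 line was 1.44 at 6 h (SE 0.207, adjusted p = 1.39e-05, 2.72-fold) and 1.18 at 12 h (adjusted p = 7.86e-05, 2.27-fold), the largest fold change of the 7 genes at both times. Beyond the EV line Bcl2 rose by 1.61 at 6 h (95% interval 0.99 to 2.22, adjusted p = 0.000322) and 1.52 at 12 h (95% interval 0.91 to 2.14, adjusted p = 0.000301). The lines did not differ detectably at 0 h (0.16, 95% interval -0.28 to 0.59, adjusted p = 0.66). Serum changed Bcl2 by -1.55 at 2 h (adjusted p = 2.25e-06, 2.92-fold lower), -0.39 at 6 h (adjusted p = 0.103; -0.60, adjusted p = 0.0172, with equal totals) and 0.00 at 12 h (adjusted p = 0.985). There are 3 annotated genes that overlap Bcl2. D630008O14Rik is on the opposite strand, so its reads and those of Bcl2 could be mixed if strand was not used. Mir3473f and Gm37053 are on the same strand, where counting by strand would not separate the reads.

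Mcl1 (ENSMUSG00000038612.16, chr3:95658788-95663176, plus strand) encodes a short-lived pro-survival protein. The E2F1 line had 5012 and 5148 normalized counts at 0 h, 4376 and 4546 at 2 h, 6188 and 5731 at 6 h and 5333 and 4577 at 12 h. The EV line under doxycycline had 4067 and 4172, 4220 and 4543, 4421 and 3694, and 3920 and 3881. Serum gave 9826 and 10009 at 2 h, 7210 and 6597 at 6 h and 5602 and 6125 at 12 h. The serum 2 and 6 h libraries lay above all others, in the order 2 h, then 6 h, and the serum 12 h libraries overlapped those of the E2F1 line at 6 h. Serum raised Mcl1 by 1.27 at 2 h (SE 0.09, adjusted p = 5.35e-10, 2.41-fold), 0.74 after 6 h (adjusted p = 8.79e-07) and 0.51 after 12 h (adjusted p = 7.99e-05). With quantile normalization the 3 values were 0.79, 0.45 and 0.34 and all passed the test. In the E2F1 line the change at 6 h was 0.23 (adjusted p = 0.0403), but it was -0.02 with quantile normalization (adjusted p = 0.851) and 0.11 with equal totals (adjusted p = 0.279), and the call was lost without E2F1 0 h replicate 1 (0.147), E2F1 0 h replicate 2 (0.0911) or E2F1 6 h replicate 1 (0.231). At 12 h it was -0.04 (adjusted p = 0.718), and -0.24 with quantile normalization (adjusted p = 0.0201). Beyond the EV line Mcl1 stood at 0.26 at 6 h (95% interval -0.01 to 0.52, adjusted p = 0.126) and 0.04 at 12 h (95% interval -0.23 to 0.31, adjusted p = 0.823). The smaller change under E2F1 than under serum passed the test at each time, at -1.46 (adjusted p = 3e-08), -0.51 (adjusted p = 0.00209) and -0.55 (adjusted p = 0.00167).

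**Figure D2:**
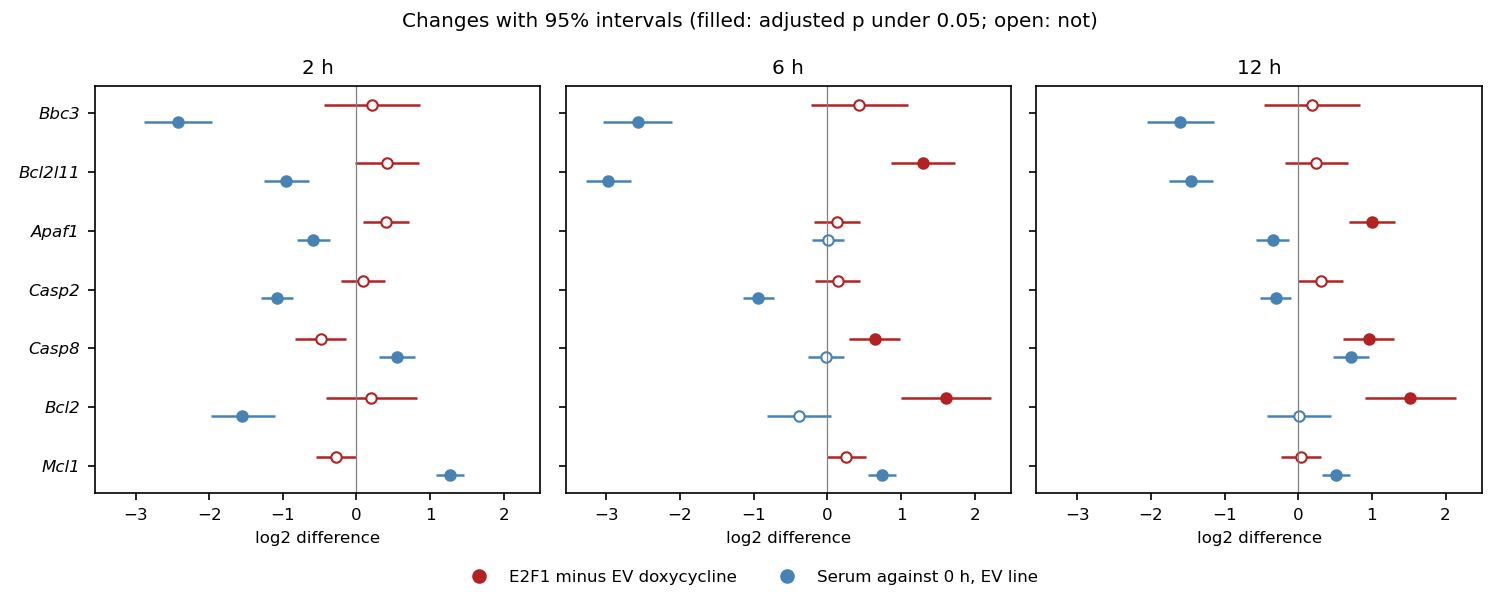
Log2 differences (horizontal axis) of the 7 genes at 2, 6 and 12 h: E2F1 change minus EV doxycycline change, and serum against 0 h in the EV line, with 95% intervals from limma; filled points have an adjusted p under 0.05. At 6 h Bcl2l11 lies at 1.30 beyond the EV line and at -2.97 under serum, and Mcl1 at 0.26 and 0.74.

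The steps between 6 and 12 h use no 0 h library. In the E2F1 line Apaf1 rose (0.65) and Bcl2l11 (-0.65) and Mcl1 (-0.27, adjusted p = 0.0269) fell, 3 of the 7 genes, with 35.3% of all genes called. The Mcl1 step was lost with quantile normalization (adjusted p = 0.0538), with equal totals (0.071), without E2F1 12 h replicate 2 (-0.16, adjusted p = 0.28) and without E2F1 6 h replicate 1 (0.173). Under serum 6 of the 7 moved from 6 to 12 h, Bbc3, Bcl2l11, Casp2 and Casp8 (0.73, adjusted p = 7.45e-05) upwards and Apaf1 (-0.35, adjusted p = 0.0124) and Mcl1 (-0.24, adjusted p = 0.0449) downwards, with 39.9% of all genes called. The Apaf1 and Mcl1 steps were lost with equal totals (adjusted p = 0.0988 and 0.374) and with only the groups compared (0.0941 and 0.114). In that fit Bbc3 was lost too (0.0598), so 3 genes were called in place of 6. The Apaf1 step was also lost without serum 6 h replicate 2 (-0.20) or serum 12 h replicate 2 (-0.25), and the Mcl1 step without serum 6 h replicate 1 (-0.17), without serum 12 h replicate 1 (-0.17) and without the 2 h doxycycline libraries (adjusted p = 0.0605).

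Before any stimulus the lines differed in 4 of the 7 genes, with Casp8 and Mcl1 (0.30, adjusted p = 0.031) higher and Bcl2l11 and Apaf1 lower in the E2F1 line, and in 15% of all genes. Casp8 alone kept this call without each 0 h library in turn; Mcl1 lost it in all 4 of those fits, with adjusted p from 0.074 to 0.136. These starting differences carry into every level of the E2F1 line, and the changes from 0 h are given beside them for that reason.

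Levels of different genes were compared per kilobase of annotated exon. At 0 h in the E2F1 line Mcl1 was the most abundant, at 1486 normalized counts per kb, then Casp8 at 426 and Bbc3 at 373.8, Casp2 at 222.5, Apaf1 at 171.7, Bcl2l11 at 117.7 and Bcl2 at 53.1; the libraries of Casp8 (448.3 and 403.7) and Bbc3 (339.9 and 407.7) overlapped. In the EV line at 0 h the order was Mcl1 (1205), Bbc3 (406.1), Casp8 (260.8), Casp2 (221.1), Apaf1 (217.5), Bcl2l11 (178.8) and Bcl2 (47.6), and the libraries of Casp2 and Apaf1 overlapped. Bcl2 had the lowest level of the 7 in all groups except serum at 6 h, where Bcl2l11 (22.7) was below Bcl2 (36.0). The level of Mcl1 per kb was 1.97 to 4.31 times that of Bbc3 in every 0 h and doxycycline library. Under serum this ratio was 45.2 and 32.9 at 2 h, 29.1 and 30.6 at 6 h and 17.1 and 9.71 at 12 h. The ratio of Bcl2 to Bcl2l11 per kb in E2F1-line libraries was 0.418 and 0.481 at 0 h, 0.433 and 0.701 at 2 h, 0.523 and 0.483 at 6 h, when both genes had risen, and 0.805 and 0.539 at 12 h. In the EV line at 0 h and under doxycycline it lay between 0.137 and 0.454. With serum it was 0.194 and 0.157 at 2 h, 1.52 and 1.67 at 6 h and 0.682 and 0.786 at 12 h, so it was highest with serum at 6 h and varied within the E2F1 groups at 2 and 12 h. Exon length was taken over all annotated transcripts, so a gene used mainly through short transcripts would read low on this scale.

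**Figure D3:**
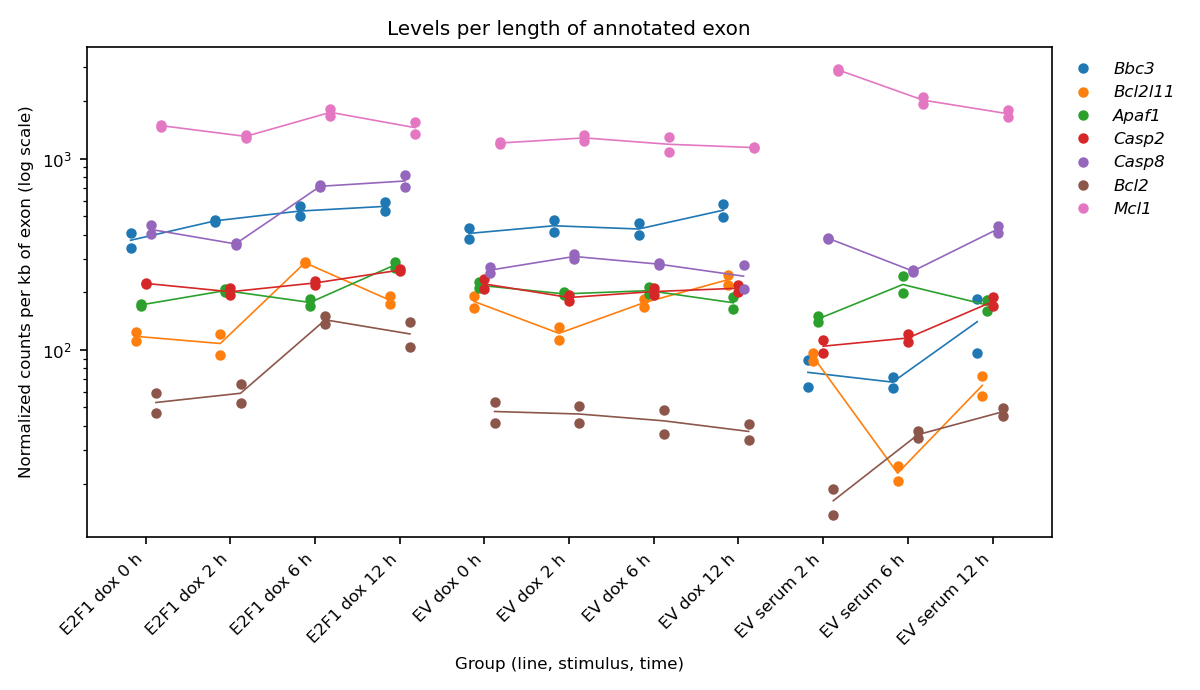
Normalized counts per kb of annotated exon (vertical axis, log scale) of the 7 genes in the 11 groups; points are libraries and lines join the group means within a time course. Mcl1 is the highest gene in each group, and Bcl2l11 falls below Bcl2 only with serum at 6 h.

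The other genes of the pathway were described from lists of textbook members, 49 genes of which 42 were measured. Under E2F1, 16 of the 42 rose and 6 fell at 6 h, and 16 rose and 12 fell at 12 h. That is 52.4% and 66.7% of the 42, near the 51.7% and 61.5% of all genes called. At 2 h Cdkn1a alone was called (0.72, adjusted p = 0.00122), beside 1.86% of all genes. Cdkn1a moved in the EV line too, from 2128 and 2064 at 0 h to 3054 and 2887 at 2 h of doxycycline. There 5 of the 42 were higher and 2 lower, which is 16.7% called, beside 7.35% of all genes. The difference between the lines at 2 h was called for 0 of the 42 and for 0.143% of all genes. Set against the EV line, 11 differed upwards and 5 downwards at 6 h, and 15 and 9 did at 12 h, with a median difference of 0.18 at both times and shares of 38.1% and 57.1% called, against 34.5% and 50.5% of all genes. Serum raised 18 and lowered 16 at 2 h, raised 17 and lowered 11 at 6 h, and raised 20 and lowered 11 at 12 h, which is 81.0%, 66.7% and 73.8% of the 42 beside 70.9%, 67.5% and 65.7% of all genes. With quantile normalization the E2F1 counts at 6 h were 11 higher and 12 lower, and with equal totals 12 and 11; serum at 2 h with equal totals had 10 higher and 20 lower.

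The BH3-only list, with 5 measured members beside Bbc3 and Bcl2l11, held no gene called higher beyond the EV line at 6 or 12 h, and 3 of its 5 were lower there at 12 h. Among all genes, the share higher was 22.2% at 6 h and 27.3% at 12 h, when 23.3% were lower. Bid, which links caspase-8 to the mitochondria, was at 398 and 363 at 0 h and 220 and 167 at 12 h in the E2F1 line, against 304 and 218 and then 267 and 293 in the EV line, a difference of -1.10 (adjusted p = 0.00312). Bmf went from 563 and 746 to 161 and 314 in the E2F1 line and from 803 and 586 to 1009 and 1290 in the EV line (-2.26, adjusted p = 0.00775), and was at 15 and 32 with serum at 2 h; its call was lost without E2F1 12 h replicate 1 (-1.78, adjusted p = 0.0502). So Bmf, like Bbc3 and Bcl2l11, was at its lowest levels under serum, but unlike Bcl2l11 it was not called higher with E2F1 at 6 h. Bok, 1 of 3 pore-forming genes, rose from 544 and 660 to 1860 and 1936 at 6 h and 3284 and 3912 at 12 h in the E2F1 line, while the EV line had 184 and 206 at 12 h and serum 2315 and 2958 at 2 h. The Bok difference between the lines was 2.26 at 6 h (adjusted p = 5.88e-06), then 3.71 by 12 h (adjusted p = 1.34e-08).

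In the apoptosome and executioner list, 4 of 9 genes were higher beyond the EV line at each of 6 and 12 h, and 1 was lower at 6 h. Among all genes 22.2% were higher and 12.3% lower at 6 h, and 27.3% were higher at 12 h. Cycs, which encodes cytochrome c, differed by 1.65 at 12 h (adjusted p = 4.99e-07) and stood at 4392 to 5789 in the serum libraries. Among the inhibitor of apoptosis genes, Birc5 encodes survivin and also serves chromosome segregation in dividing cells. In the E2F1 line it rose from 1411 and 1417 at 0 h to 7438 and 7487 at 12 h. The EV line went from 854 and 1355 to 298 and 573, and this fall is part of the difference of 3.78 (adjusted p = 7.02e-07). With serum at 12 h Birc5 was at 2759 and 2542. Birc3 was lower beyond the EV line at 12 h (-1.11, adjusted p = 0.00327).

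Around caspase-8, the death receptor gene Tnfrsf21 rose from 106 and 136 to 2238 and 1472 at 6 h and 1182 and 574 at 12 h in the E2F1 line, 3.71 (adjusted p = 6.16e-07) and 2.62 (adjusted p = 1.62e-05) beyond the EV line. With serum Tnfrsf21 was at 1199 and 900 at 2 h and 690 and 604 at 12 h, against 185 and 176 in the EV 0 h libraries. Fadd, the adaptor that recruits caspase-8, reached 518 and 642 at 12 h in the E2F1 line, 1.34 beyond the EV line (adjusted p = 0.000475). Serum had Fadd at 201 and 245 at 2 h and 559 and 566 at 12 h, against 308 and 356 in the EV 0 h libraries. Fas went the other way at 6 h (-1.38, adjusted p = 0.00788), a call that was lost without EV 6 h replicate 2 (-0.87). It went from 454 and 509 at 0 h to 273 and 303 at 6 h in the E2F1 line. The EV line had 261 and 191, then 244 and 500. So the E2F1 line began higher, and its 6 h libraries lay between those of the EV line. Of the 9 genes of this branch, 2 differed upwards and 3 downwards from the EV line at 6 h, and 3 upwards and 2 downwards at 12 h. Over all genes 34.5% differed at 6 h (22.2% higher, 12.3% lower) and 50.5% at 12 h (27.3% higher, 23.3% lower). Around caspase-2, Pidd1, the scaffold of the PIDDosome, rose from 226 and 172 to 919 and 951 at 6 h and 1592 and 1545 at 12 h, 2.71 (adjusted p = 8.07e-06) and 3.62 (adjusted p = 1.62e-07) beyond the EV line, while Casp2 itself did not pass that test. Pidd1 was at 106 and 105 with serum at 2 h and at 685 and 647 at 12 h, against 199 and 202 in the EV 0 h libraries. Cdkn1a, the p53 target that encodes the cell cycle inhibitor p21, rose from 3066 and 2954 to 13789 and 12293 at 6 h (1.97 beyond the EV line, adjusted p = 1.62e-08). At 12 h Cdkn1a stood at 15754 and 14293 (2.04 beyond the EV line, adjusted p = 8.39e-09). Serum had Cdkn1a at 8505 and 7608 at 2 h and 3624 and 3748 at 12 h, against 2128 and 2064 in the EV 0 h libraries. The pro-survival list had 3 measured members beside Bcl2 and Mcl1. Beyond the EV line 1 of the 3 was lower at 6 h and 2 at 12 h, and none was higher. Over all genes 12.3% were lower at 6 h and 23.3% at 12 h. Among these 3, Bcl2 and Mcl1, only Bcl2 was called higher there. The inhibitor of apoptosis genes, listed apart, had 2 higher at 12 h, Birc5 among them, and 1 lower.

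**Figure D4:**
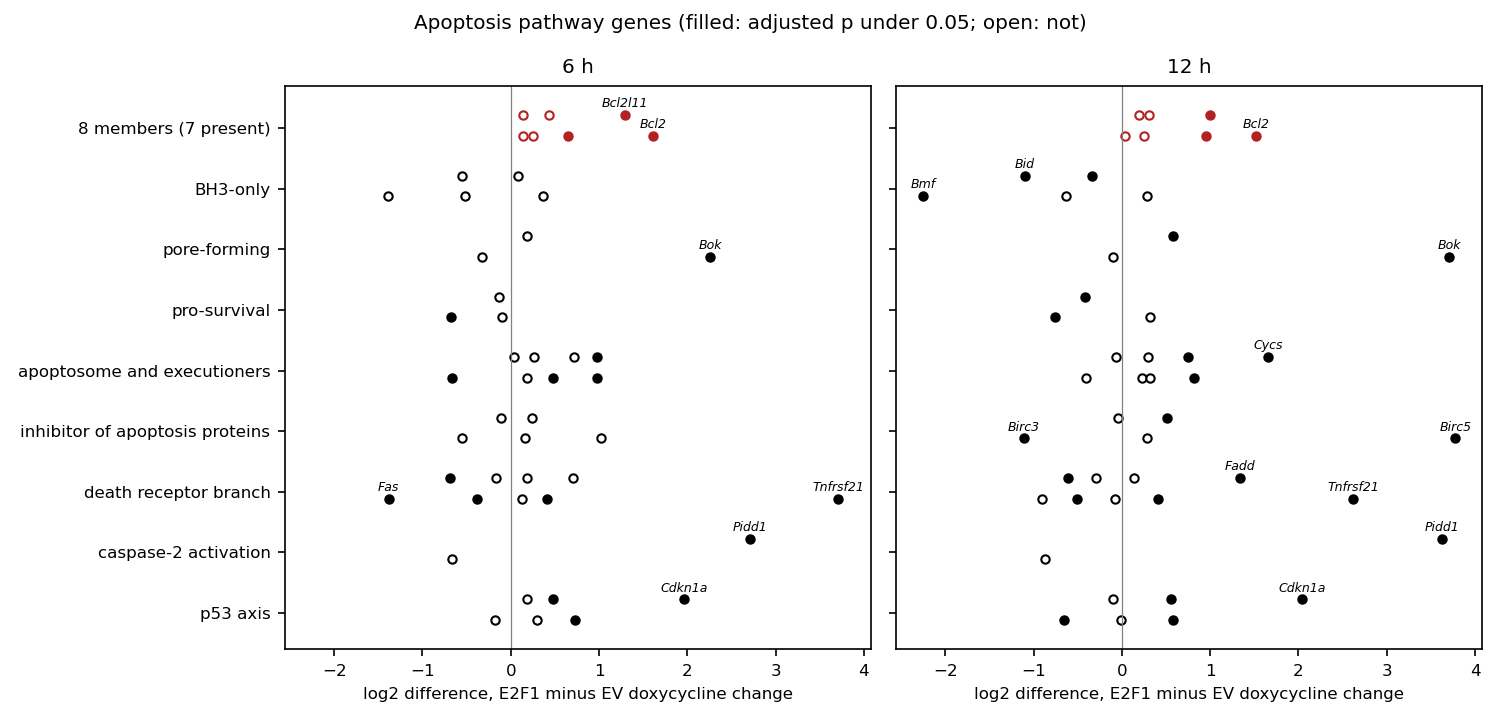
E2F1 change minus EV doxycycline change (log2, horizontal axis) at 6 and 12 h for the 7 members (red) and 41 other pathway genes (black) by list; each point is a gene, filled where the adjusted p is under 0.05, and genes past 2-fold are named. Bok, Pidd1, Tnfrsf21 and Cdkn1a lie further right than any of the 7 members at both times.

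Patterns across the 11 group means were set side by side as a description, with groups that share a line, a stimulus or the 0 h libraries. Bbc3 and Casp2 had the closest patterns of any 2 of the 7 genes (Pearson r = 0.919), followed by Bbc3 and Bcl2l11 (0.833), and Bbc3 and Mcl1 were the most opposed (-0.813). Over the whole table the genes most like Bbc3 were Zfp512b (r = 0.987), Tctn3 and Mms19. For Bcl2l11 they were Llgl1 (0.983), Ctps2 and Tead2, for Casp2 Prob1 (0.977), Rhebl1 and Ift140, and for Apaf1 Hcfc1 (0.881), Mkks and Prcc. Casp8 was most like Wdyhv1 (0.984), Blmh and Mlf1, Bcl2 most like Dcun1d2 (0.982), Depdc5 and Patz1, and Mcl1 most like Map2k3 (0.984), Plk3 and Hbegf. Apaf1 was the member with the lowest best match, and also the one with the narrowest span, 2.05-fold from lowest to highest library.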

How the data were processed

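RNA was measured in 22 NIH/3T3 libraries, and groups and replicate numbers came from the labels. Libraries were polyA-selected and read as paired ends, per the labels' protocols. The submitters' processing notes name FastQC, Trimmomatic, HISAT2, featureCounts and DESeq2 and the build mm10, without versions or settings. Per the file headers, the values are normalized counts; the authors deposited them rounded to whole numbers, so they were treated as a score and not tested as raw counts. Separate tables hold log2 fold changes and adjusted p-values as the authors deposited them, for genes past about 2 on the log2 scale; they were only quoted. A read value could be estimated in 16 libraries (30500000 to 50300000 reads) and not in 6, so whole reads were not recovered.

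The values, as log2(value + 1), were fitted in limma 3.58.1 (R 4.3.3) with a mean for each of 11 groups, 22 libraries, 11 residual degrees of freedom and a mean-variance trend, and p-values were adjusted by Benjamini-Hochberg over 11208 genes, threshold 0.05. Log2 changes understate those of low genes. The filter, a value of at least 10 in 2 libraries, removed no gene. The code was tested on simulated data. The alternatives were a pseudocount of 8, no filter, a mean of at least 500, quantile normalization, equal totals, the replicate block, only the groups compared, no 2 h doxycycline libraries, and each library left out. The members and lists were chosen with earlier results of these data known. Other pathway genes were named when called and changed at least 2-fold beyond the EV line at 6 or 12 h, and the 3 genes most like each member by r; 1 pathway gene that met this rule is not reported here by name or in the figure. GENCODE identifiers matched for 10977 genes. Sequences are RefSeq's (GRCm38.p6), and all 7 members matched.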

Additional observations from a re-analysis of the deposited data

Results flagged for a closer look

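The change under doxycycline differed between the E2F1 and EV lines, by a test of the difference itself, in 6 cases among the 7 genes. Bcl2l11 differed by 1.30 log2 units at 6 h, Apaf1 by 1.00 at 12 h, Casp8 by 0.64 at 6 h and 0.96 at 12 h, and Bcl2 by 1.61 at 6 h and 1.52 at 12 h. In each case both E2F1 libraries lay above both 0 h libraries of their line.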

How the results depend on the processing

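Over the settings other than leaving out a library, 1089 values kept direction and call, 18 lost the call, 4 gained it and 14 changed sign; over fits without 1 library, in which the lone library of a group is assumed to vary like the other groups, the numbers were 756, 32, 1 and 35. The settings for other pathway genes were chosen after seeing the data. The filter removed nothing, so that setting equals the one reported. The cause of each change below was not tested.

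With quantile normalization the sign turned for Apaf1 (-0.11), Casp2 (-0.14) and Mcl1 (-0.0205) in the E2F1 line at 6 h, Apaf1 (-0.14) and Casp8 (0.0349) under serum at 6 h, Apaf1 (-0.0022) and Casp2 (-0.0038) in the difference between the lines at 6 h, Mcl1 (-0.15) in that at 12 h and Casp2 (-0.0253) between the lines at 0 h. With equal totals it turned for Apaf1 (-0.0749) and Casp2 (-0.11) in the E2F1 line at 6 h, Apaf1 (-0.21) under serum at 6 h, Bcl2 (-0.0761) under serum at 12 h and Mcl1 (-0.0291) in the difference between the lines at 12 h. Of these only Mcl1 in the E2F1 line at 6 h had been called.

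With only the groups compared, the members called went from 1 to 0 in the EV line at 2 h of doxycycline, from 4 to 2 between the lines at 0 h and from 6 to 3 for serum from 6 to 12 h, and Bbc3 gained a call in the E2F1 line at 6 h (adjusted p = 0.00716). The pathway genes called in the E2F1 line at 2 h were 2 with quantile normalization and 3 with only the groups compared, in place of 1. All genes called there were 330 and 596 in place of 208. In the difference between the lines at 2 h they were 51 with quantile normalization, 45 with only the groups compared and 5 with a mean of at least 500, in place of 16. With only the groups compared, the EV line under doxycycline had 400, 1 and 77 genes called at 2, 6 and 12 h in place of 824, 15 and 467, and the lines at 0 h had 652 in place of 1684.

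The replicate numbers name the libraries and are not stated to pair them. Over 55 pairs of groups the replicate differences correlated from -0.28 to 0.45 (median 0.0314, 18 over 0.1). With the replicate block the members called were 0, 4 and 5 in the E2F1 line at 2, 6 and 12 h, 0, 3 and 3 beyond the EV line and 7, 4 and 6 under serum, as without it; over all genes the block moved the difference between the lines at 2 h from 16 to 33.

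Leaving out 1 library gave 0 to 1 members called in the EV line at 2 h of doxycycline and 1 to 2 between the lines at 0 h. Sign changes without 1 library all concerned uncalled values. Their ranges were, in the E2F1 line, -0.0118 to 0.33 for Bcl2 and -0.32 to 0.0498 for Bcl2l11 at 2 h, -0.0186 to 0.10 for Apaf1 and -0.0245 to 0.0386 for Casp2 at 6 h, and -0.15 to 0.0702 for Mcl1 at 12 h; from 6 to 12 h, -0.0017 to 0.16 for Bbc3 and -0.0188 to 0.20 for Casp8. In the EV line under doxycycline they were -0.22 to 0.14 for Bcl2 at 2 h, and at 6 h -0.0232 to 0.18 for Bbc3, -0.38 to 0.0442 for Bcl2, -0.13 to 0.0893 for Bcl2l11 and -0.16 to 0.10 for Mcl1, and at 12 h -0.16 to 0.012 for Casp2 and -0.32 to 0.0871 for Casp8. Under serum they were -0.14 to 0.15 for Apaf1 and -0.0652 to 0.036 for Casp8 at 6 h and -0.18 to 0.19 for Bcl2 at 12 h. Between the lines at 0 h they were -0.25 to 0.0088 for Bbc3, -0.025 to 0.34 for Bcl2 and -0.0739 to 0.10 for Casp2. For E2F1 minus serum at 6 h Apaf1 ranged from -0.11 to 0.18, and for E2F1 minus EV at 12 h Mcl1 from -0.0716 to 0.15.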
